A study of Rattus norvegicus with 6 samples.

Results

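The connexins and pannexins are the pore-forming proteins of gap junctions and of large membrane channels, and 9 of their genes were followed here in rat dorsal root ganglia (DRG). They were 7 connexins (Gja1, Gja4, Gjb1, Gjb2, Gjc1, Gjc3 and Gjd2) and 2 pannexins (Panx1 and Panx2), found by gene symbol among the 43350 rows of the expression table, and where a symbol stood on more than 1 row the protein-coding row was taken. All animals were male Sprague-Dawley rats without any engineered allele. In the CCI group the left sciatic nerve was loosely tied (chronic constriction injury, a rat model of neuropathic pain), and in the sham group the same nerve was exposed and left untied, although the labels give these rats the treatment "none". The L4-6 DRG of the operated side were taken on day 11 from 3 rats per group, 1 rat per library per the study's methods, and the rats had been kept in the study for showing the expected pain behavior. A whole ganglion holds sensory neurons, satellite glia, Schwann cells, vessels, macrophages and connective tissue, and its neurons include both axons that pass the ligature and axons that do not, so in these bulk samples fewer cells of a type and less RNA per cell cannot be told apart.

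Connexins assemble as hexamers in the plasma membrane, and a hexamer that docks onto one of a neighboring cell forms a gap junction through which ions and small metabolites pass. Pannexins form membrane channels but do not usually form such junctions. Panx1 is best known as a channel that releases ATP, which then acts on P2X and P2Y receptors of nearby cells. In sensory ganglia, connexin 43 (Gja1) couples the satellite glia around neuronal cell bodies, connexin 32 (Gjb1) and connexin 29 (Gjc3) belong to Schwann cells, connexin 36 (Gjd2) is the neuronal connexin, connexins 37 (Gja4) and 45 (Gjc1) are known from vessel walls, connexin 26 (Gjb2) from epithelia and leptomeninges, and Panx2 is a pannexin of neurons.

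The promoter windows of 4 members are shown because they carry the contrast described below: Panx1 and Gja4 were the members higher after CCI, Panx2 was lower, and Gja1 was the most abundant connexin. Each window runs from 250 bases before to 50 bases after the transcription start in RefSeq (rat build GRCr8, not the build of the expression table), in the direction of the gene, and capitals mark the motif matches.
Panx1: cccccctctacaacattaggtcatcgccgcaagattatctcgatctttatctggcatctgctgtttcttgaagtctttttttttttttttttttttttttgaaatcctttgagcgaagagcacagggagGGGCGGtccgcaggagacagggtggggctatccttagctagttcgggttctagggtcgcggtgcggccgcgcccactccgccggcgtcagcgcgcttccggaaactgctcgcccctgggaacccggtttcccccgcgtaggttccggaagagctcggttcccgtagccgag
Panx2: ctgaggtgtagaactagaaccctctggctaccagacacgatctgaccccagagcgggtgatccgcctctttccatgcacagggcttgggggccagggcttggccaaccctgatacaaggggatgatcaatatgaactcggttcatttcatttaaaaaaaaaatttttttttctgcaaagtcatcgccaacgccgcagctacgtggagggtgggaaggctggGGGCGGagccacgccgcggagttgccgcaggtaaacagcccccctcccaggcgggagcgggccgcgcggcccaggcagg
Gja4: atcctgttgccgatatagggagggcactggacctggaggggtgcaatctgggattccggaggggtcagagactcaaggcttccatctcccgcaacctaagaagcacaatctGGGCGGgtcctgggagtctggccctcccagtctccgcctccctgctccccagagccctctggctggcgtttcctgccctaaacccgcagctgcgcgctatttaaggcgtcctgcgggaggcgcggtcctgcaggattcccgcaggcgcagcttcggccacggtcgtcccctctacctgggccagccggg
Gja1: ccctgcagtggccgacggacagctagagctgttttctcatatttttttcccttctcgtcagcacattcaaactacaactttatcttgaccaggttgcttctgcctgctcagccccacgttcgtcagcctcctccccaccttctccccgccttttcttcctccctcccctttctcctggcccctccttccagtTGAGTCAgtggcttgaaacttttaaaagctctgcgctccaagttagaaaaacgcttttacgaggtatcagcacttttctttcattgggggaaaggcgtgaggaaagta
Panx1 lies at chr8:20171151-20171450 on the minus strand, Panx2 at chr7:122018687-122018986 on the plus strand, Gja4 at chr5:144920275-144920574 on the minus strand and Gja1 at chr20:36302314-36302613 on the plus strand. The AP-1 motif TGANTCA, which Jun and Fos proteins bind, was found on either strand in 1 of the 8 members with a window, Gja1, at bases -58 to -52 from the start, against 7.33% of all 33469 RefSeq windows. The cAMP response element TGACGTCA was found in 0 of the 8, against 1.83% of all windows, and a GC box (GGGCGG) in 5 of them (Gja4, Gjb2, Gjd2, Panx1 and Panx2) against 33.1%. The windows of Panx1 (56.3% G and C) and Panx2 (59%) both held a GC box, at -121 to -116 and at -29 to -24, and neither held an AP-1 match or a response element in these letters. Panx1 was also among the genes that the study measured by qRT-PCR, and the study reports it as significantly higher after CCI there. Both of its primers are printed below and were not aligned to a transcript here. The qRT-PCR values were not analysed here.
Panx1 forward primer: gtggctgcacaagttcttcc
Panx1 reverse primer: aacttcaggtcggagcagag

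Each library held 75423546 to 87615743 counts, at which a count of 3 is 0.0342 to 0.0398 CPM. CPM is a gene's count per 1000000 counts of the library after TMM scaling, and is used here to compare 1 gene between libraries. Levels of different genes are compared as the deposited FPKM, which is per kilobase of transcript length and was not TMM-scaled here. Muscle transcripts stood apart in the library of sham 1, with a summed level of 383 CPM over 7 markers against 8.57 to 48.0 CPM in the other libraries. Neuronal markers were abundant in all libraries (10 of 10 tested, summed level 13509 to 17291 CPM), as were those of satellite glia (8 of 8) and Schwann cells (9 of 9). Endothelial markers were present at a summed level of 73.9 to 117 CPM, and 5 of the 6 found passed the filter on low values described below. The remaining one, Cldn5, had 0 counts in all libraries, and whether the assembly placed its reads on another row was not tested.

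After CCI, Panx1 and Gja4 rose, Panx2 was lower by a smaller factor, and the other 6 members did not pass the test. A gene was called when the unadjusted p of edgeR's quasi-likelihood test was under 0.05 and the log2 fold change (CCI against sham) was at least 0.58 in size. Of the 9 members, all 9 passed the filter on low values (a mean of at least 0.5 FPKM), 2 were called higher and 0 lower. Over all 26663 rows tested, 2.57% were called higher (686 rows) and 1.26% lower (336 rows). Without the fold limit, 3 members had an unadjusted p under 0.05 (Panx1, Panx2 and Gja4), against 10.7% of all rows, and in the same 3 the CCI and sham libraries did not overlap, as in 17.3% of all rows. No member passed an adjusted p of 0.05 in the edgeR fit, which 25 rows did (0.0938%), while with DESeq2 2 members passed it (Panx1 and Panx2). The median log2 fold change of the 9 members was -0.10, beside 0.006 over all rows, with 4 values above 0 and 5 below.

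**Figure D1:**
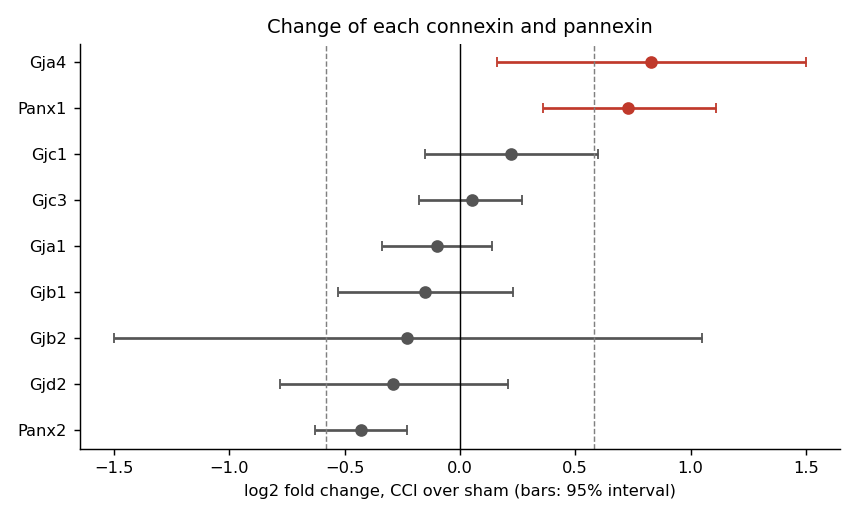
The log2 fold change (CCI against sham) of each member is plotted with its 95% confidence interval from edgeR, with the call limit of 0.58 drawn on either side of 0. Panx1 (0.73) and Gja4 (0.83) lie beyond the limit, Panx2 (-0.43) lies inside it with an interval (-0.63 to -0.23) that stays below 0, and the intervals of the other 6 members include 0.

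Panx1, the ATP-releasing channel subunit, was higher in every CCI library than in every sham library. It was measured at 24.4, 17.8 and 17.2 CPM after CCI and at 11.4, 11.2 and 13.1 CPM after sham surgery. The CCI libraries were the higher ones throughout, and CCI 1 stood above the other two. The means were 19.8 CPM ± 4.03 (SD, n = 3) and 11.9 CPM ± 1.07 (SD, n = 3), and Panx1 rose 1.66-fold (log2 fold change 0.73 ± 0.16 SE, 95% confidence interval 0.36 to 1.11, edgeR unadjusted p = 0.00280, adjusted p = 0.189). Without CCI 1 the log2 fold change was 0.55 (edgeR unadjusted p = 0.00283), under the fold limit, so that the call rests on this library while the direction and the p do not. With DESeq2 the same fold change had an adjusted p of 0.00224. The Panx1 row covers 39302 bases of chromosome 8 (13566739 to 13606040, minus strand, in the build of the table). It lies inside a joined row of the same strand for Med17 and a non-coding transcript, which had 980 to 1119 counts after CCI and 994 to 1367 after sham surgery. How the assembly divided reads between the overlapping rows is not known, so the Panx1 counts and fold are uncertain to that extent.

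Panx1 was also set against cell type markers. Of 10 neuronal markers 0 were called, and 3 had a log2 fold change above 0 (median -0.19). The neurofilaments Nefl, Nefh and Nefm had log2 fold changes of -0.57, -0.55 and -0.29. Nefl passed an adjusted p of 0.05 (edgeR adjusted p = 0.0457), and Nefh had an edgeR unadjusted p of 4.15e-04, both under the fold limit. Snap25 (-0.39, edgeR unadjusted p = 0.0411) and Rbfox3 (-0.24) were also below 0. Calca (-0.15, edgeR unadjusted p = 0.0352) and Isl1 (-0.13) were lower in every CCI library. The tubulin Tubb3 (0.31, edgeR unadjusted p = 0.00832) and peripherin, Prph (0.25, edgeR unadjusted p = 0.0203), were higher in every CCI library, and Uchl1 was at 0.05. The summed level of the 10 markers, to which the neurofilaments contribute much, was 13509 to 15354 CPM after CCI and 16604 to 17291 CPM after sham surgery, and Panx1 per 1000 CPM of these markers was 1.37 CPM ± 0.281 (SD, n = 3) after CCI and 0.700 CPM ± 0.0787 (SD, n = 3) after sham surgery. Of 8 macrophage markers 7 had a log2 fold change above 0 (median 0.43). Of the 8, 3 were called higher (Cd68, Csf1r and Cx3cr1) and 5 were not called, among them Aif1 (log2 fold change 0.50) and Adgre1 (0.02). Their summed level was 138, 122 and 97.0 CPM after CCI and 76.7, 75.4 and 97.4 CPM after sham surgery, and the groups overlapped. Panx1 per 1000 CPM of the macrophage markers was 177, 146 and 177 CPM after CCI and 148, 148 and 135 CPM after sham surgery, and here the groups overlapped. The 6 markers of injured neurons were all called higher (summed level 411 to 693 CPM against 172 to 184 CPM), and CCI 1 was again the highest library. Panx1 per 1000 CPM of these was lower after CCI, at 35.3 to 41.8 CPM against 60.7 to 76.5 CPM. The part of neurons, macrophages and injured neurons in the Panx1 difference was not tested.

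Panx2, the pannexin of neurons and the most abundant member, was lower in every CCI library. It was measured at 59.6, 61.0 and 60.1 CPM after CCI and at 72.0, 82.3 and 88.9 CPM after sham surgery. The 3 CCI libraries were nearly equal and all lay below the lowest sham library. The CCI level was 0.743 of the sham level (log2 fold change -0.43 ± 0.08 SE, 95% confidence interval -0.63 to -0.23, edgeR unadjusted p = 0.00173, adjusted p = 0.160). This p was the smallest of the 9 members, and Panx2 was not called because the fold stayed under the limit. With DESeq2 the adjusted p was 0.00330. Per 1000 CPM of neuronal markers, Panx2 was 4.12, 3.98 and 4.45 CPM after CCI and 4.17, 4.78 and 5.35 CPM after sham surgery, and the groups overlapped on this scale. This scale rests in large part on the neurofilaments, of which Nefl and Nefh were lower in every CCI library. Calca and Isl1 were also lower in every CCI library, while Tubb3 and Prph were higher in every one. The part of neurons in the Panx2 difference was not tested.

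The opposite directions of the pannexins can also be read as 1 ratio, which restates both folds and is no further evidence. The ratio of Panx1 to Panx2 in FPKM was 0.456, 0.323 and 0.318 after CCI and 0.176, 0.151 and 0.164 after sham surgery. Every CCI library was above every sham library, and the mean ratio was 2.24 times higher. Panx1 made up 31.3%, 24.4% and 24.1% of the pannexin FPKM after CCI and 14.9%, 13.1% and 14.1% after sham surgery. The sum of both pannexins was 22.5 to 24.5 FPKM after CCI and 23.9 to 28.8 FPKM after sham surgery, and the groups overlapped.

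**Figure D2:**
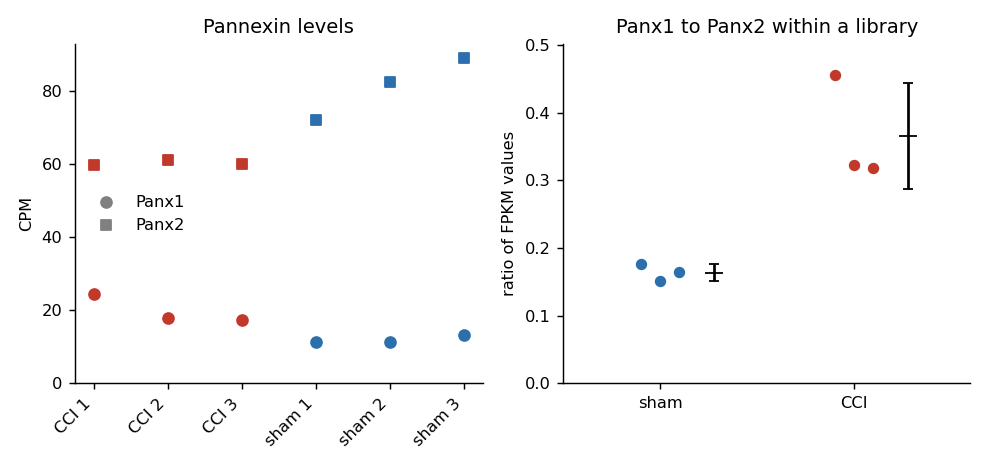
The left panel plots CPM of Panx1 (circles) and Panx2 (squares) in each library, and the right panel the ratio of Panx1 to Panx2 FPKM per library with the group mean and SD (n = 3). CCI libraries are red and sham libraries blue. The CCI libraries lie above the sham libraries for Panx1 and for the ratio (0.318 to 0.456 against 0.151 to 0.176), and below them for Panx2.

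Gja4 (connexin 37), known from arterial endothelium, was the connexin that rose. It was measured at 2.08, 2.14 and 2.27 CPM after CCI and at 1.71, 0.894 and 1.05 CPM after sham surgery. The CCI libraries were close together, and sham 1 lay nearer to them than to the other sham libraries. The fold was 1.78 (log2 fold change 0.83 ± 0.28 SE, 95% confidence interval 0.16 to 1.50, edgeR unadjusted p = 0.0228, adjusted p = 0.366), from 169 to 173 counts after CCI and 71 to 150 after sham surgery. The call was lost through its p without CCI 2 (log2 fold change 0.84, edgeR unadjusted p = 0.0518), without CCI 3 (0.79, unadjusted p = 0.0593), without sham 2 (0.65, unadjusted p = 0.0627) and without sham 3 (0.73, unadjusted p = 0.0719), while the fold stayed past the limit. It was kept without CCI 1 (0.86, edgeR unadjusted p = 0.0451) and without sham 1, where the log2 fold change was 1.15 (unadjusted p = 0.00264).

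Gja4 was set against markers of the vessel wall. Of the 5 endothelial markers tested, 0 were called in either direction, with a median log2 fold change of -0.11 and a summed level of 73.9, 106 and 93.5 CPM after CCI against 117, 87.8 and 95.1 CPM. Gja4 per 1000 CPM of these markers was 28.1, 20.1 and 24.3 CPM after CCI and 14.6, 10.2 and 11.1 CPM after sham surgery, which did not overlap (exact two-sided permutation test, p = 0.1, the smallest that 3 against 3 libraries can give). The summed level of 7 markers of smooth muscle and pericytes was slightly higher after CCI (245 to 257 CPM against 208 to 241 CPM), with 0 of 7 called. Of the 7, 6 had a log2 fold change above 0 (median 0.25), and Des was at -0.72. Acta2 (0.40, edgeR unadjusted p = 0.00660) and Tagln (0.31, edgeR unadjusted p = 0.00320) were higher in every CCI library at folds under the limit. Per 1000 CPM of the 7 markers, Gja4 was 8.09 to 9.05 CPM after CCI and 4.16 to 7.08 CPM after sham surgery, also without overlap. Among the endothelial markers, intervals were wide for Kdr (-0.79 to 0.30), Cdh5 (-0.75 to 0.43) and Emcn (-0.40 to 0.64). Those of Flt1 (-0.31 to 0.10) and Tie1 (-0.41 to 0.23) left out a change as large as the call limit. Pecam1 was not found in the table, and the part of vessel cells in the Gja4 difference was not tested. In all, 22 such ratios and shares were computed, and none could reach an exact p under 0.1.

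**Figure D3:**
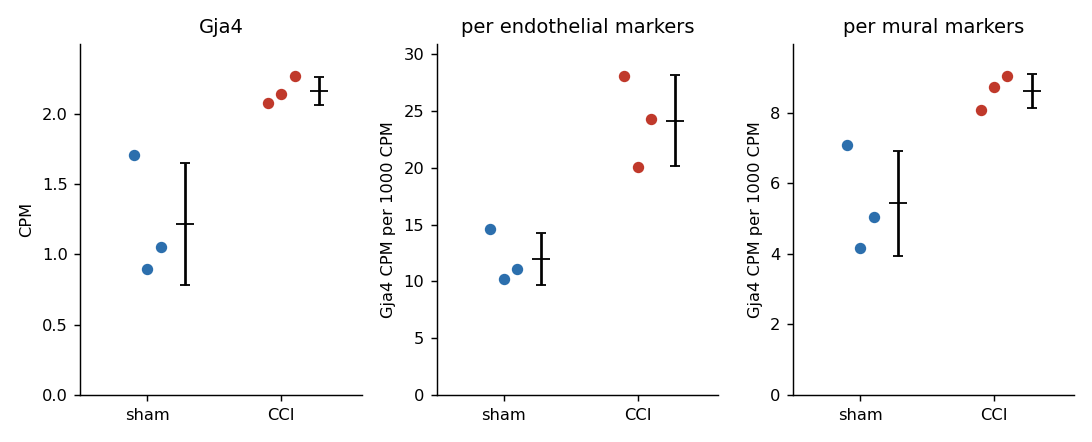
Gja4 is plotted per library as CPM and per 1000 CPM of the summed endothelial markers and of the summed smooth muscle and pericyte (mural) markers, with the group mean and SD (n = 3). The CCI libraries lie above the sham libraries in each panel, and sham 1 is the sham library nearest to them (1.71 against 2.08 CPM for the lowest CCI library).

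The connexins of glia did not pass the test. Gja1, the satellite glial connexin 43, was measured at 29.2, 27.4 and 33.0 CPM after CCI and at 33.8, 29.0 and 33.3 CPM after sham surgery, and the groups overlapped (log2 fold change -0.10, 95% confidence interval -0.34 to 0.14, edgeR unadjusted p = 0.346). The interval leaves out a change in either direction as large as the call limit. Of 8 satellite glial markers 0 were called, and their summed level, mostly Apoe, was slightly higher after CCI without overlap (2659 to 2760 CPM against 2524 to 2654 CPM). Single markers went apart, with Fabp7 at a log2 fold change of -0.55 and Cdh19 at 0.37 (edgeR unadjusted p = 0.0101, adjusted p = 0.282). Gja1 per 1000 CPM of the 8 markers was 9.94 to 12.3 CPM against 10.9 to 13.2 CPM.

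Gjc3 (connexin 29) was measured at 37.0, 37.0 and 37.3 CPM after CCI and at 40.2, 31.8 and 35.6 CPM after sham surgery. The CCI libraries were almost equal and lay inside the sham range, and the log2 fold change was 0.05 (95% confidence interval -0.18 to 0.27, edgeR unadjusted p = 0.633). Gjb1 (connexin 32), a component of myelinating Schwann cells, was measured at 4.02, 3.69 and 5.03 CPM and at 4.58, 4.77 and 4.77 CPM. Its sham libraries were almost equal and lay inside the CCI range (log2 fold change -0.15, 95% confidence interval -0.53 to 0.23, edgeR unadjusted p = 0.383). Schwann cell markers spanned 6479 to 8917 CPM after CCI and 8083 to 9077 CPM after sham surgery, with 1 of 9 called (Pmp2, lower, log2 fold change -0.67). Gjb1 per 1000 CPM of them overlapped between groups, at 0.517 to 0.621 CPM against 0.505 to 0.591 CPM.

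Gjc1 (connexin 45), of smooth muscle and pericytes, was measured at 3.32, 2.94 and 3.10 CPM after CCI and at 2.98, 2.51 and 2.54 CPM after sham surgery. Only the sham 1 library reached into the CCI range, and the difference did not pass the test (log2 fold change 0.22, 95% confidence interval -0.15 to 0.60, edgeR unadjusted p = 0.204). Relative to 1000 CPM of the smooth muscle and pericyte markers, Gjc1 was 12.4 CPM ± 0.478 (SD, n = 3) after CCI and 12.1 CPM ± 0.367 (SD, n = 3) after sham surgery, with overlapping groups. Gjd2 (connexin 36), the neuronal connexin and the least abundant member after CCI, was measured at 1.52, 1.37 and 1.13 CPM against 1.75, 1.47 and 1.69 CPM. The groups overlapped, and the interval from -0.78 to 0.21 around a log2 fold change of -0.29 includes a decrease larger than the call limit (edgeR unadjusted p = 0.210). Its counts were 86 to 154 per library.

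Gjb2 (connexin 26) varied most among animals. It was measured at 1.71, 6.38 and 5.18 CPM after CCI and at 7.98, 4.10 and 3.43 CPM after sham surgery. The lowest library was a CCI library and the highest a sham library, 4.67 times apart, and both groups held high and low libraries. The coefficient of variation was 54.8% after CCI and 47.5% after sham surgery, against 0.556% to 35.4% for the groups of the other members. The log2 fold change of -0.23 had a 95% confidence interval from -1.50 to 1.05 (edgeR unadjusted p = 0.684), so that a change of the size of the call limit was not detectable in either direction. The sign turned positive without CCI 1 (0.16) and without sham 1 (0.23).

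The same libraries were high for some further transcripts, which were chosen after their values were seen. Gjb6 (connexin 30), whose gene lies beside Gjb2 on chromosome 15 (37400889 to 37410848, against 37377316 to 37383277 for Gjb2), was measured at 0.221, 1.24 and 2.06 CPM after CCI and at 3.47, 0.290 and 0.242 CPM after sham surgery. Its 3 highest libraries were CCI 2, CCI 3 and sham 1, as for Gjb2. Slc6a13, a GABA transporter known from leptomeninges, was measured at 1.75, 5.19 and 8.57 CPM and at 6.28, 1.86 and 2.85 CPM, and Aldh1a2, which makes retinoic acid, at 0.184, 2.20 and 1.48 CPM and at 2.92, 0.453 and 0.520 CPM. A second short row under the symbol Gjc1, with no strand and no transcript type, followed the same libraries (0, 1.42 and 1.94 CPM against 1.19, 0.151 and 0.133 CPM), while the protein-coding Gjc1 row did not. The fixed list of 6 fibroblast and leptomeningeal markers includes Slc6a13 and Aldh1a2, so it is not separate from them. Its summed level was lowest in CCI 1 (1057 CPM against 1565 to 1739 CPM in the other libraries), the library with the least Gjb2. The sum did not follow Gjb2 throughout, with sham 3 (1660 CPM) above CCI 3 (1648 CPM). Gjb2 per 1000 CPM of these markers was 1.62, 3.67 and 3.15 CPM after CCI and 4.73, 2.62 and 2.07 CPM after sham surgery. The part of leptomeningeal tissue in the spread of Gjb2 was not tested.

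**Figure D4:**
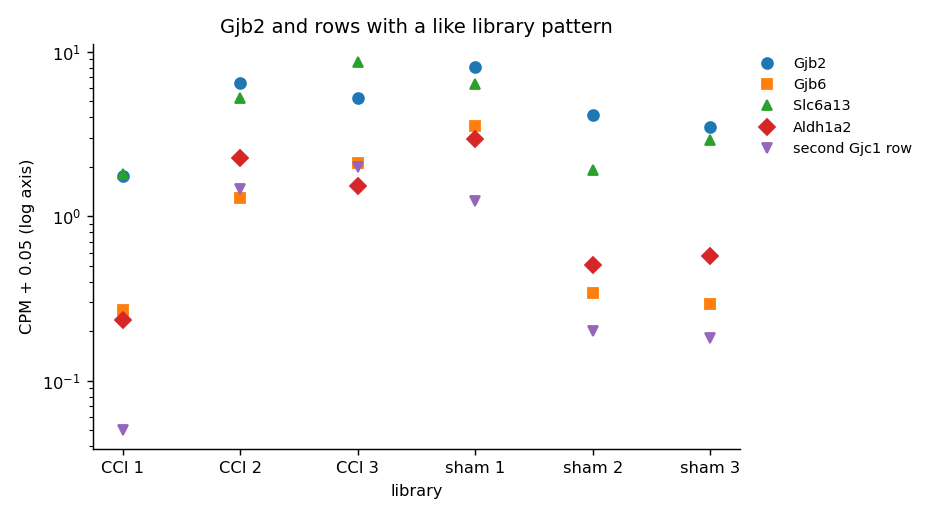
CPM of Gjb2, Gjb6, Slc6a13, Aldh1a2 and the second Gjc1 row are plotted on a log axis, after adding 0.05 so that 0 can be drawn, for each of the 6 libraries in the order of their labels. CCI 2, CCI 3 and sham 1 hold the 3 highest values of each transcript, for example 6.38, 5.18 and 7.98 CPM for Gjb2.

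Per transcript length, Panx2 and Gja1 led the family in both groups. In the sham group the order of the means was Panx2 (22.7 FPKM ± 2.21, SD, n = 3), Gja1 (9.28 FPKM ± 0.787), Gjc3 (5.78 FPKM ± 0.716), Panx1 (3.70 FPKM ± 0.314), Gjb1 (2.52 FPKM ± 0.0411), Gjb2 (1.94 FPKM ± 0.941), Gjc1 (1.18 FPKM ± 0.127), Gjd2 (0.781 FPKM ± 0.0736) and Gja4 (0.692 FPKM ± 0.254). The ranges of Gjb1 and Gjb2, of Gjb2 and Gjc1, and of Gjd2 and Gja4 overlapped, and the other neighbors in this order lay apart. In the CCI group Panx2 (17.1 FPKM ± 0.245, SD, n = 3) and Gja1 (8.76 FPKM ± 0.861) again led. Panx1 (6.23 FPKM ± 1.24) came next there and overlapped with Gjc3 (6.04 FPKM ± 0.0566). Gjb1, Gjb2, Gjc1 and Gja4 followed between 2.29 and 1.25 FPKM, each overlapping with its neighbor, and Gjd2 came last with 0.646 FPKM ± 0.0952.

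The summed connexin level overlapped between groups. It was 20.7, 21.7 and 23.8 FPKM after CCI and 25.0, 19.9 and 21.6 FPKM after sham surgery (exact two-sided permutation test, p = 1). Gja1 and Gjc3 together made up 64.9% to 70.7% of it in every library. The share of Gja4 was 5.76%, 5.69% and 5.53% after CCI and 3.91%, 2.53% and 2.73% after sham surgery.

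**Figure D5:**
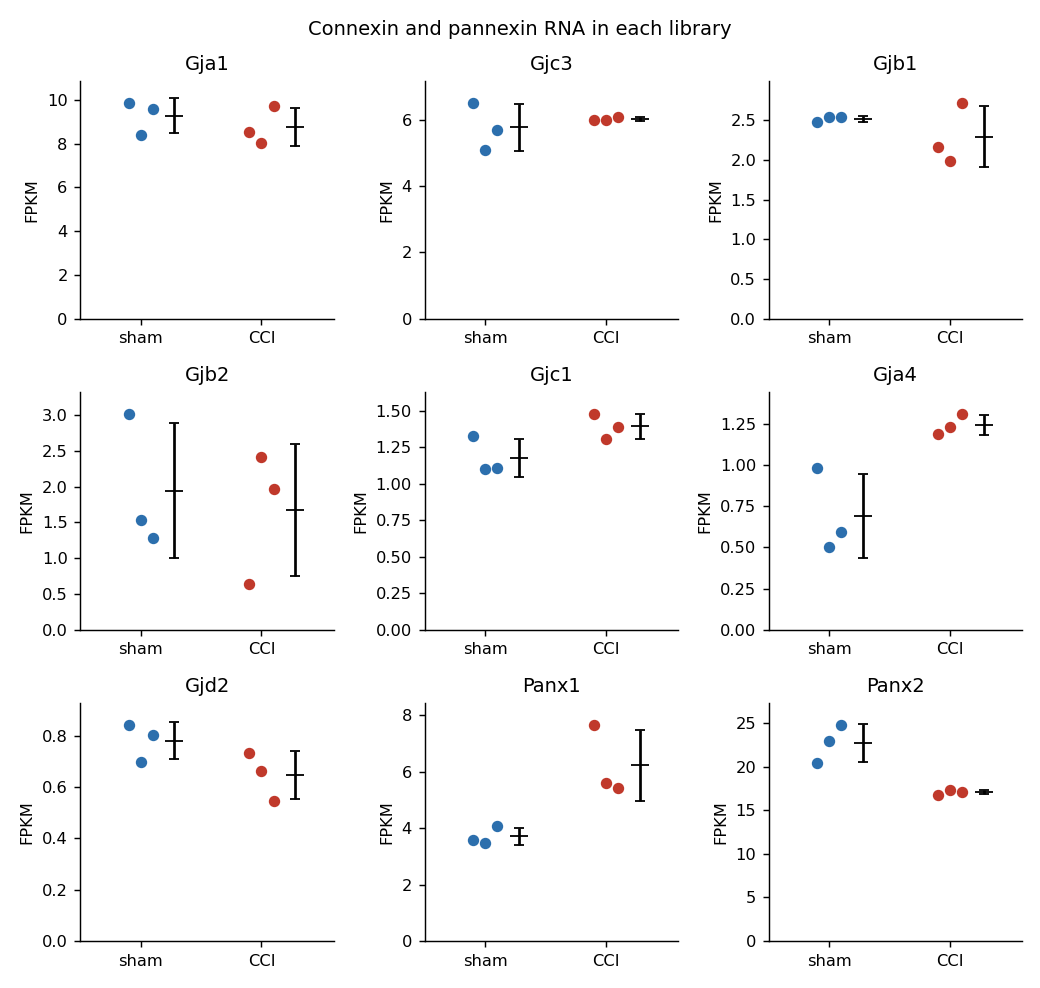
FPKM of the 9 members is plotted per library, 1 panel per gene with its own axis from 0, with the group mean and SD (n = 3). The CCI libraries lie above the sham libraries for Panx1 and Gja4 and below them for Panx2, and the groups overlap in the other 6 panels.

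Of 15 further connexin and pannexin genes listed, 13 were in the table and only Gjb6 passed the filter (log2 fold change -0.19, edgeR unadjusted p = 0.878). Gja3, a lens connexin, and Gje1 had 0 counts in all 6 libraries. Gja5 (connexin 40, arterial) had 41 to 88 counts per library and Panx3, known from bone and cartilage, 25 to 79, both with overlapping groups.

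Partners of these channels are given by list, to be read beside the 2.57% of all rows called higher and the 1.26% called lower. Of 10 other large-pore channel genes tested, 0 were called (median log2 fold change -0.03), although Lrrc8c, a subunit of volume-regulated anion channels, had an unadjusted p of 0.00489 in edgeR at a log2 fold change of -0.19. Of 11 junction scaffold and trafficking genes tested, 0 were called (median 0.05), and Tjp1, the scaffold that binds connexin 43, had a log2 fold change of 0.08. The summed level of the 11 genes was higher in every CCI library (2656 to 2796 CPM against 2585 to 2648 CPM). Nedd4, the largest part of this sum, overlapped between groups (log2 fold change 0.05). Of single genes, only Map1lc3b, an autophagy protein (0.24, edgeR unadjusted p = 0.00110, adjusted p = 0.135), and Dbn1, the actin-binding drebrin (0.22, edgeR unadjusted p = 0.0115, adjusted p = 0.296), were higher in every CCI library, at folds under the limit. Of 12 ATP-degrading ectoenzymes and adenosine receptors tested, 0 were called (median -0.07). Entpd3, an enzyme that breaks down extracellular ATP, was lower in every CCI library at a fold under the limit (log2 fold change -0.46, edgeR unadjusted p = 5.07e-04, adjusted p = 0.109).

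Among 13 receptors for extracellular ATP tested, 0 were called higher and 1 lower (median -0.07). The gene that fell was P2rx6, an ATP-gated channel subunit, at 12.1, 14.2 and 18.0 CPM after CCI and 21.5, 24.0 and 25.0 CPM after sham surgery (log2 fold change -0.67, edgeR unadjusted p = 0.00402, adjusted p = 0.217). P2rx7, the receptor often described together with Panx1, was measured at 38.3, 45.6 and 60.5 CPM and at 56.6, 55.7 and 45.3 CPM, which overlapped (log2 fold change -0.13, edgeR unadjusted p = 0.501). P2rx3, the ATP receptor of nociceptors, had a log2 fold change of 0.16 and P2rx4 one of -0.12, and neither was called. Of 11 caspases and inflammasome genes 1 was called higher (median 0.24). This was Pycard, the inflammasome adaptor (log2 fold change 0.68, edgeR unadjusted p = 0.0127, adjusted p = 0.311).

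Of the 28 genes annotated to the gap junction or connexin complex, 16 were tested and 2 were called, Gja4 and Panx1 themselves (median -0.10). The KEGG gap junction pathway lists 85 genes but, of the members, only Gja1 and Gjd2. Of its 73 tested genes (median 0.06) 2 were called higher and 1 lower. The higher ones were Tubb6, a tubulin (log2 fold change 1.24, edgeR adjusted p = 0.0303), and Prkcb, a protein kinase C (1.06, edgeR unadjusted p = 0.0145). The lower one was Mapk7, at 0 counts in all CCI libraries against 926 to 1106 counts after sham surgery. Whether the assembly placed Mapk7 reads of the CCI libraries on another row was not tested.

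The genes whose levels followed each member most closely were read from the Pearson correlation of log2 CPM over the 6 libraries of both groups among 12668 protein-coding genes. These values are a description, with no test. Panx1 was followed by Hr (r = 0.998), Pip5k1b (0.997) and Mcm5 (0.997), of which Mcm5 was also called higher (log2 fold change 1.09). Panx2 was followed by Map1a (r = 0.999), Slc12a3 (0.992) and Ryr2 (0.992). Gja4 was followed by Kifc3 (r = 0.999) and Cemip (0.994), and Gja1 by AC094212 (0.992), AABR07059675 (0.989) and Fam193b (0.986). For Gjb2 the closest were RGD1560883 (r = 0.994), Hp1bp3 (0.990) and Ptch1 (0.983), for Gjc1 Pou2f1 (0.994) and Zbtb26 (0.992), and for Gjd2 Sertm1 (0.988), Trmt9b (0.987) and RGD1306502 (0.980). For the Schwann cell connexins they were Poglut2 (r = 0.986), Farp1 (0.985) and Hist1h2ao (0.981) beside Gjc3, and Nmt1 (0.982), RGD1305350 (0.982) and Nsun5 (0.977) beside Gjb1.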

How the data were processed

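Total RNA of the DRG was depleted of ribosomal RNA and sequenced in pairs from dUTP libraries. Per the submitters' processing notes, reads were mapped with HISAT2 2.0 and assembled and quantified with StringTie 1.3.0. The study's methods name the mapper HISAT and the rat genome only by a version. The strand setting of the counting is not given in the sources used here. The authors deposited 1 table with a read count and an FPKM value per row and library, where an FPKM of 0.0001 stands for 0 counts. The labels speak of pooled samples and the methods of 1 rat per sample. If samples were pooled, the p-values measure the spread between pools. The 9 members and all lists were chosen with earlier results of these data known, and the members, list genes and closest genes were named by a stated rule (all members, all called list genes, and the 3 highest correlations). Some genes that the rule names are not reported here.

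The 26663 rows with a mean of at least 0.5 FPKM were tested on the deposited counts with edgeR 4.0.16 (quasi-likelihood, TMM factors 0.988 to 1.01, R 4.3.3), 3 CCI against 3 sham libraries, with Benjamini-Hochberg adjustment over all rows. Rows without a gene symbol held 5.37% to 5.72% of the counts. Libraries of a group differed by more than sampling noise (chi-square per degree of freedom 51.4 to 74.7). Confidence intervals of 95% are those of the fit, and the floor of 3 counts covers counting error only. Alternatives were DESeq2 1.42.0, median-of-ratios factors, other filters, protein-coding rows alone, a replicate block, each library left out, and limma 3.58.1 on log2(FPKM + 0.1) and log2(FPKM + 1). The qRT-PCR, behavior and miRNA data were not analysed here.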

Additional observations from a re-analysis of the deposited data

How the results depend on the processing

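The count of members called higher was 2 with median-of-ratios factors, DESeq2, no filter, limma on log2(FPKM + 0.1), protein-coding rows alone and the replicate block, 1 with a filter at a mean of 1 FPKM, where Gja4 was not tested, and 1 with limma on log2(FPKM + 1), which shrinks low values (Gja4 0.42, limma unadjusted p = 0.0295). With 1 library left out it was 1 to 2, and both calls were kept only without sham 1. The number of members called lower was 0 throughout. Over all alternatives the log2 fold change ranged from 0.55 to 0.83 for Panx1 (adjusted p 0.00224 to 0.450), from -0.51 to -0.36 for Panx2 (adjusted p 0.00330 to 0.404) and from 0.42 to 1.15 for Gja4 (adjusted p 0.209 to 0.629). The adjusted p of Panx1 and Panx2 was under 0.05 with DESeq2 alone. Gjb2 turned positive without CCI 1 (0.16) and without sham 1 (0.23), with a range of -0.59 to 0.23 over the libraries left out, and Gjc3 negative without sham 2 (-0.03, range -0.03 to 0.14).

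Over all rows, the larger pseudocount gave 410 higher and 161 lower calls. A fit to the 13712 protein-coding rows alone gave 345 and 116. The count at an adjusted p under 0.05 was 25 in edgeR, 747 with DESeq2, 78 with protein-coding rows alone and 6 to 61 with 1 library left out, and the cause of the gap between edgeR and DESeq2 was not tested. With the replicate number as a block it was 0, with 617 rows called higher and 318 lower at the unadjusted limits, and 2 members were called higher and 0 lower. Libraries with the same number did not deviate together (correlations -0.011, -0.026 and -0.075), and 0 of the 6 matched their own number best. No pairing of the rats by number was seen, although 3 libraries per group cannot exclude a weak one. Depth limits Gjd2 and Gja4 most, with 71 to 173 counts per library.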
